A study of Mus musculus with 6 samples.

Results

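The regulators of G protein signalling, or RGS proteins, were described through 7 of the 21 genes of the Rgs family among the 27179 genes of the count table. They are Rgs1, Rgs2, Rgs3, Rgs10, Rgs14, Rgs16 and Rgs19. The genes were named with their difference between butyrate and control known, and no level separates them from the rest of the family: Rgs2 (12.9 CPM, the count relative to a TMM-scaled library total, as a mean over all 6 libraries) lies below Rgs11 and Rgs12. Their differences are therefore given as a description, with no test. The libraries are labelled as transgenic CD8+ T cells from the spleen of gBT-I mice, whose T cells bear a receptor specific for a glycoprotein B peptide of HSV. Total splenocytes of mice kept free of specific pathogens were stimulated in culture with this peptide and LPS, IL-2 was supplied on days 2 to 5, and day 6 was the harvest. In the butyrate group (3 libraries) butyrate was added from day 3. The control group (3 libraries) had the same activation and no butyrate. The sources used here do not give the dose of butyrate, the age of the mice, any sorting or the number of mice behind a culture.

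RGS proteins end signals of G protein-coupled receptors. They bind the active G alpha subunit and speed its hydrolysis of GTP, which lets the trimer of alpha, beta and gamma subunits form again. In lymphocytes most chemokine receptors work through inhibitory G alpha subunits, and RGS proteins limit how strongly and how long such cells migrate. The family is split by sequence into the subfamilies R4 (among them Rgs1, Rgs2, Rgs3, Rgs8, Rgs16 and Rgs18), R7 (Rgs9 and Rgs11), R12 (Rgs10, Rgs12 and Rgs14) and RZ (Rgs19).

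Library totals ran from 5383380 to 5809517 counts with butyrate and from 5415021 to 6244350 in control. The members had 81 to 1388 counts per butyrate library and 49 to 822 per control library. A count of 0 allows up to 3 counts in a library, or 0.486 to 0.556 CPM, and such limits cover counting error only. The summed level of 10 T cell markers was 3957 to 5012 CPM with butyrate and 4342 to 4845 CPM in control. The CD8 chain gene Cd8a had 378 to 488 CPM with butyrate and 384 to 504 CPM in control. Cd4, called higher, had 3.87 to 5.53 CPM with butyrate and 0.180 to 1.46 CPM in control. Cd3e fell from 313 CPM in control to 205 CPM with butyrate, and Lck from 583 to 431 CPM (edgeR adjusted p = 0.000816 and 0.00605). The other 7 T cell markers did not pass. The summed level of 14 macrophage and dendritic cell markers was 86.2 to 98.6 CPM with butyrate and 23.3 to 78.4 CPM in control, with Cd209a and Siglech at 0 counts throughout. Most of the gap between the group sums is Itgam, at 44.0 CPM with butyrate and 4.07 CPM in control (edgeR adjusted p = 2.9e-05). The other 4 tested did not pass, among them Lyz2, with 24.9 CPM with butyrate and 22.5 CPM in control. Itgax had 10.9 CPM with butyrate and 10.4 CPM in control. The sum of 10 B cell and plasma cell markers was 188 to 491 CPM with butyrate and 462 to 793 CPM in control, with Pax5 at 0 counts throughout. Most of it is the immunoglobulin gene Ighm, at 340 CPM with butyrate and 611 CPM in control (edgeR adjusted p = 0.0955). The 2 markers of this list that passed the edgeR test went the other way. Sdc1 had 17.6 CPM with butyrate and 1.45 CPM in control, and Cd22 had 4.03 CPM with butyrate and 0.695 CPM in control. The sum of 8 NK cell markers was 62.1 to 76.2 CPM with butyrate and 79.3 to 94.7 CPM in control, with Klra9 at 0 counts throughout. Most of that sum is Eomes, a transcription factor gene that CD8+ T cells also express, at 54.4 CPM with butyrate and 83.0 CPM in control, whereas Klrb1c had 10.8 CPM with butyrate and 3.39 CPM in control and Klre1 had 5.40 CPM with butyrate and 2.19 CPM in control. Sums of 9 granulocyte and mast cell markers were 22.6 to 50.7 CPM with butyrate and 10.9 to 24.3 CPM in control, and those of 9 erythroid and platelet markers 7.72 to 70.2 CPM with butyrate and 1.48 to 8.10 CPM in control. Called by the edgeR test were 1 higher and 2 lower of 10 T cell markers tested, 1 higher of 5 macrophage and dendritic cell markers, 2 higher of 6 B cell and plasma cell markers, 2 higher and 1 lower of 3 NK cell markers, 2 higher of 4 granulocyte and mast cell markers and 1 higher of 2 erythroid and platelet markers. Over all genes tested, 23.5% were called higher and 22.5% lower. The part of other cells in the results was not tested, and in bulk RNA fewer cells of a type and less RNA per cell cannot be told apart.

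All 7 members passed the filter on low counts. Rgs1, Rgs2 and Rgs16, all of the R4 subfamily and all on chromosome 1, stood higher with butyrate, and Rgs3, Rgs10, Rgs14 and Rgs19 stood lower. Neither trait is particular to the higher members. Rgs3 is of R4 as well, and many other genes of the family lie on chromosome 1, among them Rgs4, Rgs5, Rgs7 and Rgs8. The highest of the fold changes was 8.75 for Rgs16, and the 4 lower members stood at 0.660 to 0.755 of their control level. The butyrate and control libraries did not overlap for 6 of 7 members, against 57.1% of the 11740 genes tested, and an adjusted p under 0.05 in edgeR's quasi-likelihood test was reached by 6 of 7 members (3 higher and 3 lower), against 45.9% of all genes (23.5% higher and 22.5% lower). Since the members were chosen on this contrast, nothing is read from these counts. With the replicate number as a block, or without butyrate replicate 1, the count was 7, and without butyrate replicate 3 or control replicate 1 it was 5. Higher genes made up 51.1% of all calls, and 61.8% with upper quartile scaling, which kept the direction of every member.

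**Figure D1:**
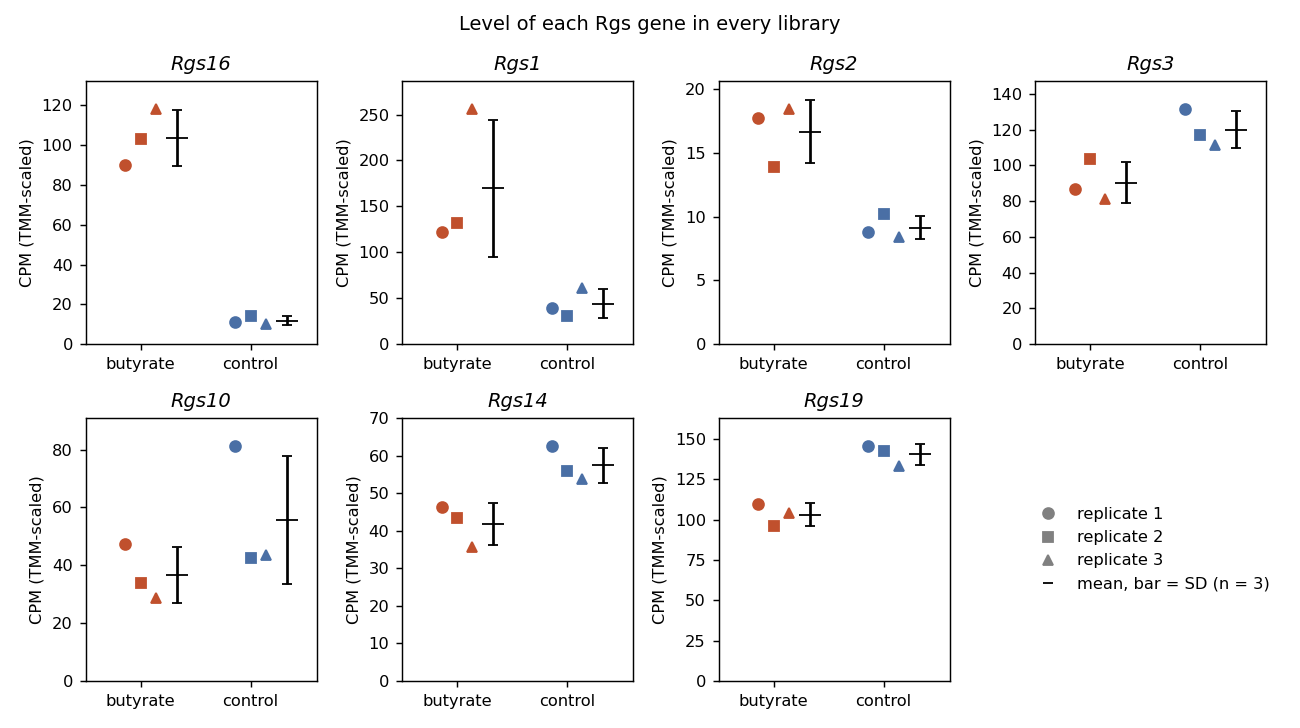
Level of the 7 Rgs genes in CPM (TMM-scaled) in each library, butyrate left and control right, with symbols for the replicate number and the mean ± SD (n = 3) beside the points. Rgs16, Rgs1 and Rgs2 lie higher in all 3 butyrate libraries, Rgs3, Rgs14 and Rgs19 lie lower in all 3, and the groups of Rgs10 overlap.

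Rgs16 (gene 19734, chromosome 1, 153740353 to 153745468, GRCm38.p6) is a small R4 protein that is induced in activated lymphocytes and acts on inhibitory and Gq-type alpha subunits. It had 90.0, 103 and 118 CPM in butyrate replicates 1 to 3 and 11.3, 14.3 and 10.04 CPM in control replicates 1 to 3. The lowest butyrate library thus stood far above the highest control library. The means were 104 ± 13.97 CPM with butyrate and 11.9 ± 2.16 CPM in control (SD, n = 3), and the log2 fold change was 3.13 (SE 0.15). Over the 15 alternative settings it lay between 3.02 and 3.28.

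Rgs1 (gene 50778, chromosome 1, 144244669 to 144249104), which restrains chemokine-driven migration of B and T cells, had 122, 131 and 256 CPM in butyrate replicates 1 to 3 and 39.7, 30.6 and 61.6 CPM in control replicates 1 to 3. The groups did not overlap, and in both of them replicate 3 was the highest library. Means were 170 ± 74.6 CPM with butyrate and 43.9 ± 15.9 CPM in control (SD, n = 3). The log2 fold change was 1.94 (SE 0.33). It was 1.52 without butyrate replicate 3 and 2.28 without control replicate 3. Replicate 3 was also the library with the highest sum of granulocyte and mast cell markers in both groups, at 50.7 CPM with butyrate, where replicates 1 and 2 had 24.7 and 22.6 CPM, and at 24.3 CPM in control, where they had 15.1 and 10.9 CPM. Replicate 3 also had the highest sum of erythroid and platelet markers in both groups, at 70.2 CPM with butyrate and 8.10 CPM in control. It had the highest sum of macrophage and dendritic cell markers too, at 98.6 CPM with butyrate, where replicates 1 and 2 had 86.2 and 96.4 CPM, and at 78.4 CPM in control, where they had 36.0 and 23.3 CPM. Within this list, Lyz2 was highest in replicate 3 in both groups. It had 10.1, 27.1 and 37.6 CPM in butyrate replicates 1 to 3 and 13.7, 8.34 and 45.5 CPM in control replicates 1 to 3. Itgam went the other way with butyrate, at 50.9, 47.9 and 33.2 CPM in replicates 1 to 3. The sum of B cell and plasma cell markers was lowest in replicate 3, at 188 CPM with butyrate and 462 CPM in control. Replicates 1 and 2 had 489 and 491 CPM with butyrate, and 793 and 677 CPM in control. Most of that sum is Ighm in each library. The sum of T cell markers was also highest in replicate 3 in both groups. It was 4745, 3957 and 5012 CPM in butyrate replicates 1 to 3 and 4795, 4342 and 4845 CPM in control replicates 1 to 3. That of NK cell markers was 76.2, 75.0 and 62.1 CPM with butyrate and 94.7, 79.3 and 93.6 CPM in control. The part of any of these cell types in the level of Rgs1 was not tested.

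Rgs2 (gene 19735, chromosome 1, 143999338 to 144004149), which acts mainly on Gq-type alpha subunits, was the least abundant member. It had 17.7, 13.9 and 18.4 CPM in butyrate replicates 1 to 3, from 96, 81 and 100 counts, and 8.81, 10.2 and 8.42 CPM in control replicates 1 to 3, from 49, 55 and 52 counts. The groups did not overlap. Means were 16.7 ± 2.44 CPM with butyrate and 9.14 ± 0.928 CPM in control (SD, n = 3), and the log2 fold change was 0.87 (SE 0.17).

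Rgs3 (gene 50780, chromosome 4, 62559835 to 62703019) is the R4 member with long isoforms that carry further domains before the RGS domain, and counts per gene do not separate its isoforms. It had 86.7, 103 and 81.1 CPM in butyrate replicates 1 to 3 and 131, 117 and 112 CPM in control replicates 1 to 3. Every butyrate library lay below every control library, by a smaller margin than for Rgs16 or Rgs1. The log2 fold change was -0.41 (SE 0.11), from means of 90.4 ± 11.6 CPM with butyrate and 120.02 ± 10.2 CPM in control (SD, n = 3). In RefSeq a long noncoding RNA gene that is not a row of the count table overlaps Rgs3, and reads of both cannot be told apart here, as no source used here gives the strand setting of the counting.

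In the R12 subfamily, Rgs14 (gene 51791, chromosome 13, 55369732 to 55384687) joins its RGS domain to Ras-binding domains and a GoLoco motif that holds inhibitory alpha subunits in the GDP-bound state. Rgs14 had 46.3, 43.4 and 35.6 CPM in butyrate replicates 1 to 3 and 62.6, 55.9 and 53.6 CPM in control replicates 1 to 3. The groups did not overlap, and the log2 fold change was -0.46 (SE 0.12).

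Rgs10 (gene 67865, chromosome 7, 128373621 to 128419506), also of R12, is a short protein that is little more than an RGS domain. It had 47.4, 34.0 and 28.7 CPM in butyrate replicates 1 to 3 and 81.2, 42.4 and 43.4 CPM in control replicates 1 to 3. Rgs10 was the member whose groups overlapped, because butyrate replicate 1 lay above control replicates 2 and 3. In both groups replicate 1 was the highest library. The log2 fold change was -0.60 (SE 0.27) with all libraries and -0.22 without control replicate 1. Within each replicate number, the butyrate library stood at 0.584, 0.801 and 0.662 of its control.

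Rgs19 (gene 56470, chromosome 2, 181688419 to 181694537), the RZ protein first found by its binding to an inhibitory alpha subunit, varied least among libraries. It had 109.8, 95.7 and 104 CPM in butyrate replicates 1 to 3 and 146, 142 and 133 CPM in control replicates 1 to 3. The groups did not overlap. Means were 103 ± 7.05 CPM with butyrate and 140.3 ± 6.44 CPM in control (SD, n = 3), and the log2 fold change was -0.44 (SE 0.08). The SD was 6.84% of the mean with butyrate and 4.59% in control, against 43.9% with butyrate and 36.2% in control for Rgs1 and 26.2% with butyrate and 39.7% in control for Rgs10.

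Set within replicate numbers, the direction of each member was the same in all 3 pairs. The ratio of the butyrate to the control library was 7.95, 7.20 and 11.7 for Rgs16, 3.08, 4.30 and 4.16 for Rgs1, and 2.01, 1.36 and 2.19 for Rgs2. It was 0.660, 0.884 and 0.726 for Rgs3, 0.740, 0.776 and 0.663 for Rgs14, and 0.754, 0.673 and 0.779 for Rgs19. The order of the pairs thus differed between members: replicate number 3 had the largest ratio for Rgs16 and Rgs2, number 2 for Rgs1.

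**Figure D2:**
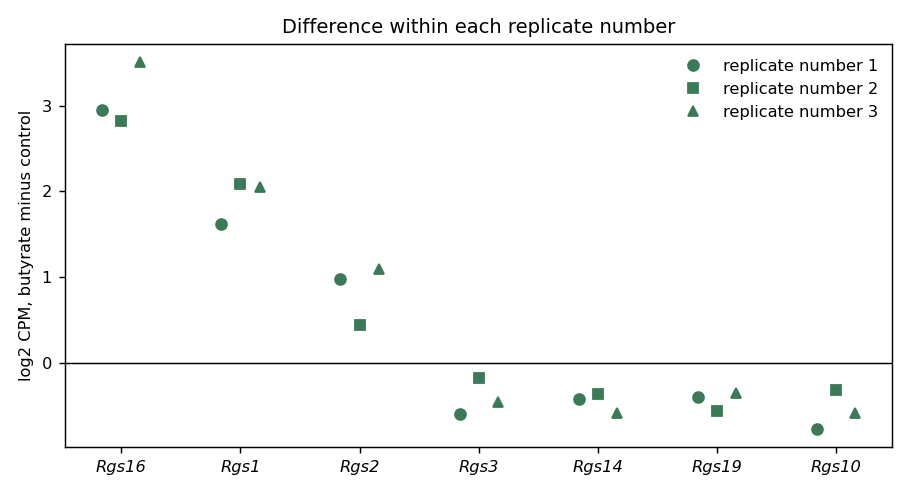
Difference in log2 CPM (prior count of 2) between the butyrate and the control library of the same replicate number, 1 symbol per number. All 3 values of Rgs16, Rgs1 and Rgs2 lie above 0 and all 3 of Rgs3, Rgs14, Rgs19 and Rgs10 lie below it.

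Levels of different members were compared per kilobase of exon (the union of GENCODE exons), on the scale of CPM per kilobase. With butyrate the order was Rgs19 (48.2 ± 3.30), Rgs16 (44.3 ± 5.97), Rgs1 (44.2 ± 19.4), Rgs10 (32.2 ± 8.45), Rgs14 (17.7 ± 2.36), Rgs3 (11.5 ± 1.49) and Rgs2 (5.13 ± 0.749; SD, n = 3). The ranges of neighbouring genes from Rgs19 down to Rgs10 overlapped, whereas Rgs10, Rgs14, Rgs3 and Rgs2 lay in separate ranges. In control the order was Rgs19 (65.7 ± 3.01), Rgs10 (48.9 ± 19.4), Rgs14 (24.4 ± 1.97), Rgs3 (15.3 ± 1.31), Rgs1 (11.4 ± 4.15), Rgs16 (5.08 ± 0.925) and Rgs2 (2.81 ± 0.285). There the ranges of Rgs19 and Rgs10 overlapped, as did those of Rgs3 and Rgs1. With the length of the longest transcript, Rgs3 and Rgs14 changed places in both groups, and their ranges then overlapped.

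Summed over the 7 members, the level was 203 ± 17.0 CPM per kilobase with butyrate and 174 ± 23.5 in control (SD, n = 3), and the ranges overlapped. Without scaling by length the sums did not overlap, at 520.3, 525 and 641 CPM with butyrate and 481, 413 and 422 CPM in control. Of the length-scaled sum, Rgs16 made up 21.8% ± 2.16 with butyrate and 2.97% ± 0.747 in control, and Rgs1 21.4% ± 7.56 with butyrate and 6.71% ± 2.85 in control. Rgs19 made up 23.8% ± 1.94 with butyrate and 38.2% ± 3.91 in control, and Rgs10 16.004% ± 4.75 with butyrate and 27.5% ± 6.93 in control.

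**Figure D3:**
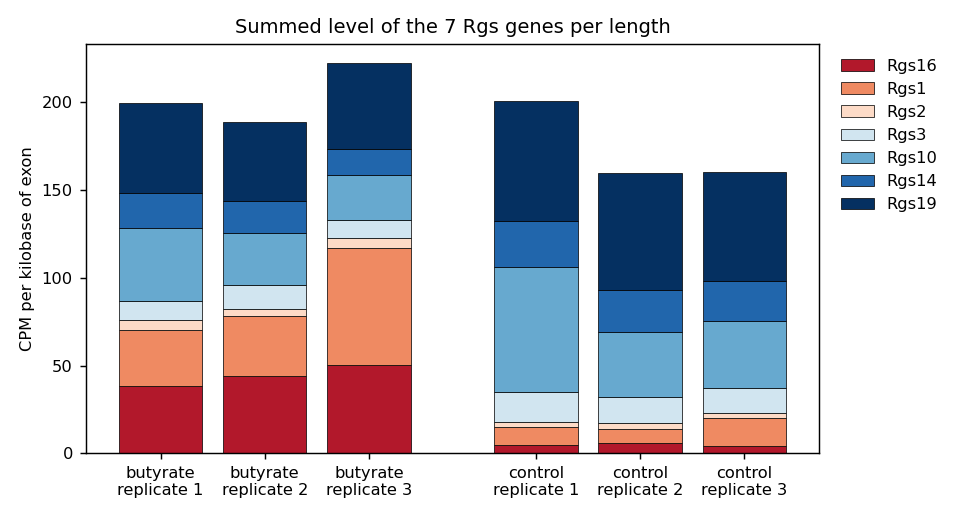
Summed level of the 7 Rgs genes in CPM per kilobase of exon, stacked by gene, in each butyrate library (left) and control library (right). Rgs16 and Rgs1, at the foot of the bars, are thicker in all butyrate libraries, while the bars as a whole overlap in height between the groups (189 to 222 with butyrate and 160 to 201 in control).

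Promoter sequence was looked up for all members, whatever their direction, and a link between motifs and direction was not tested. RefSeq's table of promoters (GRCm38.p6) held 8 windows for 5 of the 7 members and none for Rgs1 and Rgs14. The 250 bases before each start were searched on both strands. Printed are windows of Rgs2 and Rgs16, which stood higher, and of Rgs10 and Rgs19, which stood lower. The sequences below run 5′ to 3′ along the gene's strand, and the capitals mark matches to the GC box GGGCGG, to TGACG, the core of the cyclic AMP response element, to the CCAAT box and to the TATA box TATAAA, each on either strand. Rgs2 is chr1:144004150-144004399 on the minus strand, Rgs16 chr1:153740103-153740352 on the plus strand, Rgs10 chr7:128418173-128418422 on the minus strand, and Rgs19, the most upstream of its 3 starts, chr2:181693978-181694227 on the minus strand.
Rgs2: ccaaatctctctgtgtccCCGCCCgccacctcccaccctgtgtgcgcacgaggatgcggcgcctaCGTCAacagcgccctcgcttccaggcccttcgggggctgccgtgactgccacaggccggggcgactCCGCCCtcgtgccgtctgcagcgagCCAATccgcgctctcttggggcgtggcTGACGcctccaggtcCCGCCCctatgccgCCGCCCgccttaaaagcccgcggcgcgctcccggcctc
Rgs16: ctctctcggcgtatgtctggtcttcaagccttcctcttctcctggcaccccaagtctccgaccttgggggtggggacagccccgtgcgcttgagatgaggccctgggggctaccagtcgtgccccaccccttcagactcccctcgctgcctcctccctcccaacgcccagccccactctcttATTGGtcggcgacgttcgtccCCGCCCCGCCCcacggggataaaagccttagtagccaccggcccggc
Rgs10: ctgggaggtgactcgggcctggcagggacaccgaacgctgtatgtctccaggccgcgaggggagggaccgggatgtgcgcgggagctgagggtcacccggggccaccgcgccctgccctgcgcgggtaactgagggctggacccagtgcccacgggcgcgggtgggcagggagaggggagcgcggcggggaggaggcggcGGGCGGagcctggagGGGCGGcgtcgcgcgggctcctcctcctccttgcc
Rgs19: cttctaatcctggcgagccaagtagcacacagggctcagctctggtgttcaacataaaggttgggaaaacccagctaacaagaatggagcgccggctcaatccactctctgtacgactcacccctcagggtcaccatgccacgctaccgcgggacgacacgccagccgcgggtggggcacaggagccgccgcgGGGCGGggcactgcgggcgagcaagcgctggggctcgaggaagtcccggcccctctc

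Rgs2 held 4 matches to the GC box, 2 to TGACG and 1 to the CCAAT box. Rgs16 held 2 overlapping strings of the GC box, which share a base, and 1 CCAAT box. Rgs10 held 2 GC boxes and this Rgs19 window 1, and neither held a CCAAT box or TGACG. Of all 32851 windows of this length, 32.7% held the GC box, 17.8% TGACG, 33.8% the CCAAT box and 12.4% the TATA box. Of the windows not printed, both of Rgs3 held 1 TATA box and the one at its later start 1 GC box, while the 2 Rgs19 windows farther downstream held 2 and 0 GC boxes. The Rgs19 window with 2 GC boxes overlaps the printed one, and 1 of its boxes is the box counted there. G and C made up 72.4% of the window of Rgs2, 66.4% of Rgs16 and 76.4% of Rgs10, 64.8%, 74.8% and 54.4% of those of Rgs19, and 48.4% and 56.8% of those of Rgs3, against a median of 52.4% over all windows. A match describes letters in the window and not a bound site.

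Of the 14 Rgs genes outside the 7, 5 passed the filter, 2 were called higher and 0 lower, and 8 had no count in any library. Over all genes tested, 23.5% were called higher and 22.5% lower. Rgs9, an R7 member best known from retina and striatum, had 21.4, 17.3 and 18.4 CPM in butyrate replicates 1 to 3 and 2.34, 2.78 and 1.30 CPM in control replicates 1 to 3. The groups stood well apart, and Rgs9 was higher by 3.16 on the log2 scale (SE 0.24; adjusted p = 4.8e-05 in edgeR). Rgs8, an R4 member known from brain, had 9.96, 7.89 and 5.53 CPM in butyrate replicates 1 to 3 and 1.80, 2.22 and 0.648 CPM in control replicates 1 to 3. It rose by 2.34 (SE 0.40, edgeR adjusted p = 0.00158).

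The other 3 tested did not pass. Rgs11, of R7 as Rgs9 is, had 16.1 ± 1.78 CPM with butyrate and 21.9 ± 4.56 CPM in control (SD, n = 3, log2 fold change -0.44, edgeR adjusted p = 0.0622). With the replicate block its adjusted p was 0.023, and with no filter 0.0422, in a range of 0.023 to 0.214 over its alternatives. Rgs12, a large R12 protein with a GoLoco motif, had 25.1 ± 0.544 CPM with butyrate and 20.9 ± 2.20 CPM in control (SD, n = 3, edgeR adjusted p = 0.0939). It passed with upper quartile scaling (adjusted p = 0.0374, in a range of 0.0374 to 0.259). Rgs18, known from platelets, had 2.35 ± 1.71 CPM with butyrate and 1.34 ± 0.619 CPM in control (edgeR adjusted p = 0.288).

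**Figure D4:**
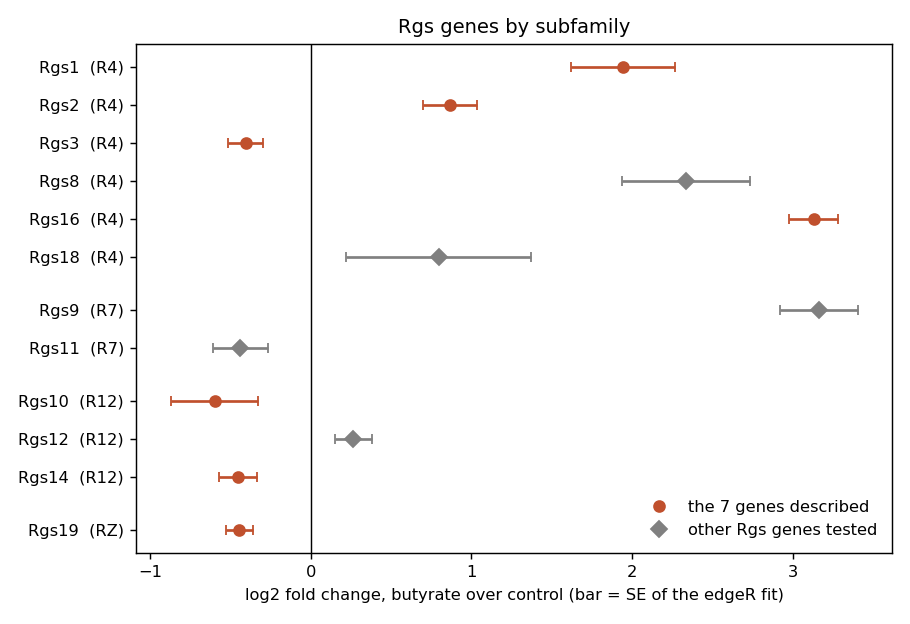
log2 fold change of butyrate over control with its SE for the 12 Rgs genes that passed the filter, ordered by subfamily, with circles for the 7 genes described and diamonds for the others. Rgs16 (3.13) and Rgs9 (3.16) lie farthest to the right, while the values to the left of 0 run from -0.60 to -0.41.

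The 3 higher members lie on chromosome 1 in 2 places. Rgs2 and Rgs1 are 241 kb apart, with Rgs13 between them, and Rgs21 and Rgs18 follow. Rgs13, known from germinal centre B cells, had 1 count over the butyrate and 0 over the control libraries, and Rgs21 had none. Rgs16 lies 42.7 kb from Rgs8, which rose.

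Among the 12 tested genes next to a member and not members themselves, 2 were called higher, 5 lower and 5 neither. Over all genes tested, 45.9% were called (23.5% higher and 22.5% lower). Beside Rgs14, Lman2, which encodes a lectin of the secretory pathway, rose by a log2 fold change of 0.47 at a distance of 6.95 kb (edgeR adjusted p = 0.00689). On the other side of Rgs14, 60.4 kb away, Grk6, a kinase that acts on G protein-coupled receptors, fell by 0.38 (adjusted p = 0.00926). Tial1, 20.3 kb from Rgs10, fell by 0.45, Akna, 664 kb from Rgs3, by 0.43 and Pcmtd2, 136 kb from Rgs19, by 0.77 (edgeR adjusted p = 0.00217, 0.00436 and 0.000316). Uchl5, Pole3, Rusf1, Tcea2 and Rgs18 did not pass (adjusted p of 0.267 to 0.573). Of all these neighbours Tcea2 lies closest to its member, 0.352 kb from Rgs19.

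Similarity of pattern was measured as the Euclidean distance between log2 CPM profiles over the 6 libraries, each centred on its own mean, among genes that averaged 10 CPM or more. Nearest to Rgs16 were Cd81, a tetraspanin gene (distance 0.405), Yap1, a coactivator of the Hippo pathway (0.484), and the sialyltransferase gene St6galnac2 (0.490), with log2 fold changes of 3.17, 3.13 and 3.73. Nearest to Rgs1 were Nt5e, which encodes the ectonucleotidase CD73 (0.381), Dab2ip (0.383) and Gcnt2 (0.421). Hmga1, Abhd17c and Gprin3 were nearest to Rgs2 (0.181 to 0.204). For the lower members the nearest were Dbnl, Nrde2 and Rnf103 for Rgs3 (0.051 to 0.109), Rictor, Tut4 and Epb41l2 for Rgs14 (0.072 to 0.092), Ncstn, Arid1b and Phf2 for Rgs19 (0.073 to 0.081), and A930024E05Rik, Pqbp1 and Tnfrsf1a for Rgs10 (0.278 to 0.292). These genes were picked for their likeness, so their folds carry no test.

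The list of G alpha subunit genes held 16, of which 10 were tested, 2 rose and 1 fell (median log2 fold change 0.06, and 0.0034 over all genes tested). For this and the following lists, the shares over all genes tested were 23.5% higher and 22.5% lower. Gnai2, the main inhibitory alpha subunit of lymphocytes, had 517, 456 and 465 CPM in butyrate replicates 1 to 3 and 729, 719 and 752 CPM in control replicates 1 to 3, and fell by 0.61 on the log2 scale (SE 0.08, edgeR adjusted p = 0.000571). Gnaq, the Gq alpha subunit, rose by 1.06 (SE 0.16, adjusted p = 0.000958), with 59.0 ± 12.8 CPM with butyrate and 28.4 ± 3.18 CPM in control (SD, n = 3). Gnaz, an alpha subunit of the inhibitory class that hydrolyses GTP slowly, had 13.7, 10.98 and 14.9 CPM in butyrate replicates 1 to 3 and 0.899, 0.741 and 0.486 CPM in control replicates 1 to 3 (log2 fold change 4.19, SE 0.29, edgeR adjusted p = 3.4e-05). Without butyrate replicate 2, or without any single control replicate, 5 alpha subunit genes were called in place of 3, where 12 were tested and not 10.

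Of 17 beta and gamma subunit genes, 11 were tested, 5 rose and 0 fell (median log2 fold change 0.31). Gnb5, the beta subunit that R7 proteins such as Rgs9 and Rgs11 need for their stability, had 12.5, 15.6 and 15.5 CPM in butyrate replicates 1 to 3 and 2.16, 2.78 and 3.89 CPM in control replicates 1 to 3. It rose by 2.29 on the log2 scale (SE 0.23, edgeR adjusted p = 0.00014). Rgs7bp, an anchor protein for such R7 complexes, had 0 counts in every library. Rgs9bp, the other such gene listed, had 24 counts over the butyrate and 22 over the control libraries and did not pass the filter. Gng7, a gamma subunit gene, had 14.4 ± 3.53 CPM with butyrate and 1.83 ± 0.509 CPM in control (SD, n = 3, edgeR adjusted p = 0.000115). Without butyrate replicate 3, control replicate 1 or control replicate 2, 3 genes of this list were called.

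Other regulators of receptors and G proteins, among them receptor kinases, arrestins and GoLoco proteins, numbered 16, with 14 tested, 3 higher and 6 lower (median log2 fold change -0.31). Grk3, a receptor kinase gene, had 10.3, 9.61 and 11.2 CPM in butyrate replicates 1 to 3 and 0.180, 0.556 and 0.162 CPM in control replicates 1 to 3, from 173 counts over the butyrate and 5 over the control libraries (log2 fold change 5.05, SE 0.36, edgeR adjusted p = 3.9e-05). Gprasp2, which encodes a receptor-sorting protein, had 61 counts with butyrate and 4 in control, the control counts all in replicate 1. Gpsm3 and Gpsm2, GoLoco proteins as Rgs14 is, fell. Gpsm3 had 63.9 ± 5.03 CPM with butyrate and 142 ± 11.3 CPM in control, and Gpsm2 had 40.4 ± 4.49 CPM with butyrate and 61.5 ± 1.80 CPM in control (SD, n = 3, edgeR adjusted p = 6.2e-05 and 0.00145).

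G protein effectors rose in 8 and fell in 3 of 14 tested, from 21 listed (median log2 fold change 0.29). Adcy7, an adenylyl cyclase gene, had 261 ± 34.1 CPM with butyrate and 468 ± 39.4 CPM in control, and Arhgef1, a RhoGEF with an RGS-like domain, had 215 ± 42.2 CPM with butyrate and 370 ± 79.4 CPM in control (SD, n = 3, edgeR adjusted p = 0.000504 and 0.0063). Rap1gap, a GTPase activator for Rap1, had 48 counts over the butyrate and 4 over the control libraries, and Adcy9 had 58 with butyrate and 6 in control (adjusted p = 0.000427 and 0.00181). Without control replicate 2 the list had 7 calls in place of 11. Genes of the cyclic AMP response rose in 7 and fell in 5 of 17 tested, from 19 listed (median log2 fold change -0.09). The phosphodiesterase genes moved both ways: Pde4a rose by 1.79 and Pde4c by 1.86 on the log2 scale, while Pde7a fell by 0.44 and Pde3b by 0.55 (edgeR adjusted p of 0.000132 to 0.00301).

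Genes of G protein-coupled receptors also moved both ways. Chemokine receptor genes rose in 6 and fell in 3 of 12 tested, from 18 listed (median log2 fold change 1.20). Cxcr4 had 338 ± 71.6 CPM with butyrate and 123 ± 10.2 CPM in control, and Cxcr3 had 156 ± 46.0 CPM with butyrate and 379 ± 21.4 CPM in control (SD, n = 3, edgeR adjusted p = 0.000132 and 0.000663), while Cxcr6 fell by 0.71 on the log2 scale (adjusted p = 0.000571). Cxcr2 had 73 counts with butyrate and 1 in control, or 75.8 times as many per library total (exact 95% interval 13.2 to 3034, for counting error alone). Lipid and metabolite receptor genes rose in 9 and fell in 5 of 24 tested, from 35 listed (median log2 fold change 0.48). Adora3, an adenosine receptor gene, rose by 2.44 on the log2 scale, while Gpr174, a lysophosphatidylserine receptor gene, fell by 1.15 and Gpr183, the oxysterol receptor gene, by 3.08 (edgeR adjusted p of 5.6e-05 to 0.000138).

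**Figure D5:**
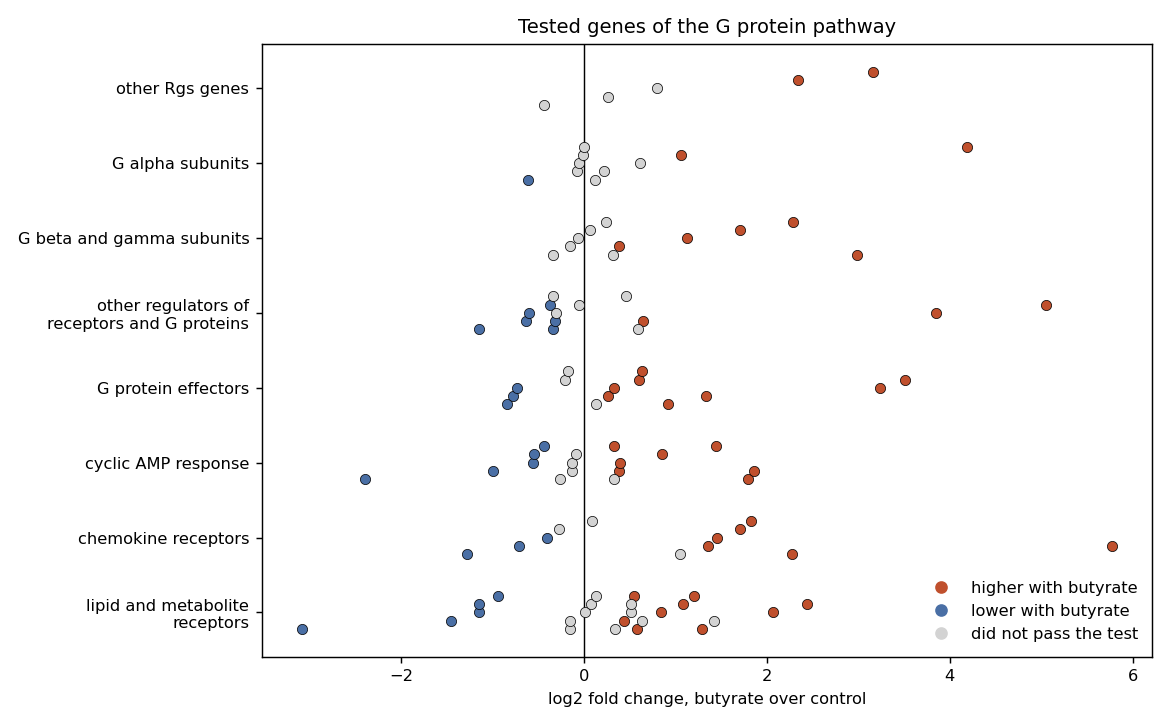
log2 fold change of butyrate over control for the tested genes of the 8 G protein pathway lists, with 1 point per gene, red where higher and blue where lower by edgeR's adjusted p under 0.05, and grey where the test was not passed. Points lie on both sides of 0 in most lists, and the beta and gamma subunits and the other Rgs genes have red and grey points only.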

How the data were processed

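RNA was measured in 6 libraries. The authors deposited raw read counts per gene, with genes given by number and 1 column per library. Per the submitters' processing notes, CASAVA, TopHat, Picard, featureCounts, Subread and edgeR were used with the build mm10. Versions, roles, the strand setting and the treatment of shared reads: not given in the sources used here. Of 27179 gene numbers, 25275 were named from RefSeq (GRCm38.p6) and 18 from GENCODE. The 1886 without a name held 0.961% to 1.20% of a library's counts and stayed in the tests.

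The main test was the quasi-likelihood test of edgeR 4.0.16 under R 4.3.3, for butyrate minus control, with TMM scaling, filterByExpr and Benjamini-Hochberg adjustment over the 11740 genes that passed the filter, tested on simulated data first. A standard error (SE) is the absolute log2 fold change over the square root of F. CPM is TMM-scaled. The alternatives were scaling by RLE, by upper quartile or by totals, no filter, DESeq2 1.42.0, limma voom 3.58.1, a floor of 5 CPM in 3 libraries, edgeR with robust dispersions, a block on the replicate number, and leaving out single libraries.

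The members and lists were chosen with earlier results of these data known. From each pathway list, up to 2 called genes per direction with the smallest p are named, and the tested neighbours of each member and the 3 genes of nearest pattern are named too. A pair of genes that this rule names, 1 of them a neighbour, is counted but not reported here. Genes named outside this rule were chosen after their values were seen. No label says that replicates are separate mice or cultures, so the spread behind the p-values may be technical. Replicates differed beyond sampling noise (chi-square over its degrees of freedom 5.43 to 10.6), and each was counted on its own. Same-numbered libraries deviated together from their group means (correlations of 0.36, 0.20 and 0.35 over all genes tested, and -0.30 to -0.07 for unlike numbers). The pairing by number is therefore taken from the data, since the labels do not tie a number to a mouse, culture or day.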

Additional observations from a re-analysis of the deposited data

How the results depend on the processing

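The 15 alternative settings gave 105 fold changes for the 7 members, and all of them kept their direction and stayed within 1 SD of the replicates of the value reported. Leaving out single libraries gave log2 fold changes of 1.52 to 2.28 for Rgs1, 0.79 to 0.98 for Rgs2, -0.52 to -0.33 for Rgs3, -0.82 to -0.22 for Rgs10, -0.54 to -0.35 for Rgs14, 3.02 to 3.28 for Rgs16 and -0.49 to -0.39 for Rgs19. The replicate block called 6315 genes over the table in place of 5393, and among the other Rgs genes, the neighbours and the genes named from pathway lists the call of Rgs11 was the one it changed. Of 120 list counts, 111 stayed within 1.5 times the count reported. The count of called alpha subunits was 6 in place of 3 with no filter, where 15 were tested and not 10. With single libraries left out it was 3 to 5, and 12 were tested wherever 5 were called. The count of beta and gamma subunits was 3 to 5 with single libraries left out and that of effectors 7 to 9, and the cause was not tested. With the longest transcript as length, 5 of 7 members kept their place in the order of levels in each group. Rgs2 had the fewest counts of the members, 49 to 100 per library.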
